A study of Mus musculus with 8 samples.

Results

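Merkel cells of back skin were compared with sorted epidermal cells also labelled as back skin, across every gene measured. The comparison takes the 4 back skin libraries of the 8 in the series, chosen by the submitters' labels: 2 of Merkel cells and 2 of cells labelled IFE, an abbreviation the labels do not write out. Every mouse was newborn (postnatal day 0) and carried Atoh1-GFP, in which green fluorescent protein (GFP) marks Atoh1, so the IFE cells came from the reporter genotype too. Both gates required EpCAM: the Merkel gate added GFP and the absence of Sca1, and the IFE gate added Sca1 and the absence of GFP. The paw libraries, 2 of each cell type sorted in the same way, entered the fit for the estimate of spread and are named where back skin was set against paw. Atoh1, Epcam and Ly6a (which encodes Sca1) belong to the sort, so their values describe the gates. Whether replicate libraries stem from different mice is not in the labels, and p-values then measure the spread between these samples alone, which may be technical.

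Merkel cells are touch receptor cells of the epidermis. They arise from epidermal progenitors under the transcription factor Atoh1, stay within the epithelium with a keratin skeleton of their own, and hold dense-core granules beside the endings of sensory nerves. Pressure opens the channel Piezo2, calcium channels carry the signal onward, and transmitter is released onto the nerve. The surrounding epidermis is built by dividing basal keratinocytes, which sit on a basement membrane, express Krt5, Krt14 and Trp63, and give rise to the layers that cornify.

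Levels are CPM, counts relative to the library total after TMM normalization. Total counts in the 4 back libraries ran from 11139306 to 26195076. Within-group Pearson correlations of log2 CPM, across genes and thus not over independent replicates, were 0.872 for the Merkel libraries and 0.897 for the IFE libraries, and between 0.63 and 0.676 for a Merkel against an IFE library. The library labelled back IFE 2 stood apart: it correlated at 0.931 and 0.918 with the paw IFE libraries, above its 0.897 with back IFE library 1. Hoxc10, a gene of posterior and distal body position, measured 0 CPM in IFE library 1, 83.9 CPM in IFE library 2 and 62.3 and 73.4 CPM in the paw IFE libraries. Krt9, a keratin of palm and sole, measured 7.11 and 307 CPM in IFE libraries 1 and 2. Hoxb4, an anterior gene of the family, measured 28 and 0.153 CPM in them and 2.04 and 0.197 CPM in the paw IFE libraries. On Hoxc10 and Hoxb4 IFE library 2 lay with the paw libraries and not with IFE library 1. These genes were picked, and others such as Hoxc8 did not part the IFE libraries in this way. Counts are therefore given with and without IFE library 2 below, and a gene given with values whose call needed it is marked. Called members named without values were not all marked.

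The markers of both cell types followed the labels in all 4 libraries. Krt20, the keratin of Merkel cells (chromosome 11, 99428403 to 99438150, minus strand, GRCm38), measured 844 and 982 CPM in Merkel libraries 1 and 2, and 0.543 and 0.382 CPM in IFE libraries 1 and 2. Isl1, a LIM homeodomain factor of Merkel cells (chromosome 13, 116298281 to 116309689, minus strand), measured 578 and 565 CPM in the Merkel libraries and 0.434 and 0.305 CPM in the IFE libraries. Both genes were high in each Merkel library and under 1 CPM in each IFE library. Trp63, the regulator of stratified epithelium (chromosome 16, 25683763 to 25892102, plus strand), measured 149 and 182 CPM in the Merkel libraries and 2067 and 2066 CPM in the IFE libraries. Krt14, the type I keratin of basal cells (chromosome 11, 100203162 to 100207548, minus strand), measured 106 and 167 CPM in the Merkel libraries and 6035 and 4379 CPM in the IFE libraries. The basal markers were lower in both Merkel libraries, without overlap, and clearly present there. In sorted bulk samples fewer cells of a type and less RNA per cell cannot be told apart. Atoh1, which the sort selects through GFP (chromosome 6, 64729125 to 64731245, plus strand), measured 214 and 178 CPM in the Merkel libraries and 0.163 and 0.458 CPM in the IFE libraries. Ly6a, selected against in Merkel cells, measured 0.228 and 1.95 CPM against 35.1 and 59.7 CPM (a call lost without Merkel library 1 or IFE library 2), and Epcam, selected for in both gates, 268 and 267 CPM against 344 and 349.9 CPM.

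Of 15151 genes tested, 2338 (15.4%) differed between back Merkel and back IFE cells at an edgeR adjusted p under 0.05. In Merkel cells 1210 were higher (7.99% of genes tested) and 1128 lower (7.45%), and the count was 1786 without IFE library 2, of which 1592 were shared in direction. It was 1307 without Merkel library 2 and 1555 without IFE library 1. The higher genes had the wider fitted folds: 519 of them changed at least 32-fold, against 260 of the lower genes, and their median log2 fold changes were 4.0 and -3.12. These are not bounded for the 109 higher and 73 lower genes without a count in 1 cell type. The floor of 3 counts was also lower in IFE cells (0.0672 CPM) than in Merkel cells (0.128 CPM), which leaves room for wider rises. In 2334 of the 2338 genes the 2 Merkel libraries lay wholly above or below the 2 IFE libraries. Such separation alone was common, with 29.1% of all genes tested separated upward and 32.8% downward. The reference for every list count below is the called share of all genes tested, 7.99% higher and 7.45% lower. It is not repeated beside each count. List counts are out of members listed, not all of them tested, unless stated. The lists were chosen with earlier results of these data known.

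**Figure D1:**
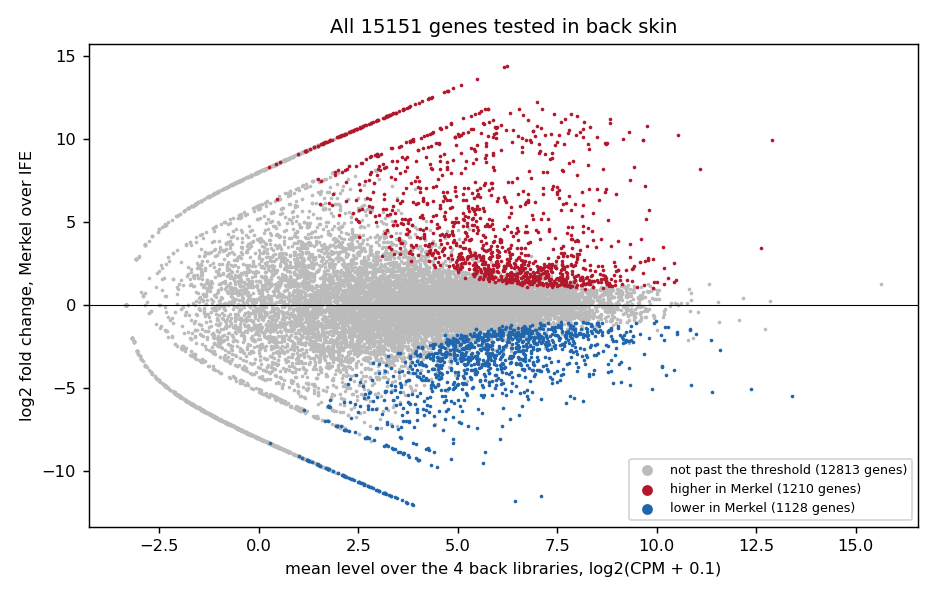
Each point is 1 of the 15151 genes tested in back skin, placed by its mean level over the 4 back libraries (log2 of CPM + 0.1, horizontal axis) and its log2 fold change, Merkel over IFE (vertical axis). The 1210 red genes were higher and the 1128 blue genes lower in Merkel cells, and the outermost curved edges are genes with no count in 1 of the 2 cell types.

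The largest rises led from genes without a single count in either IFE library to clear expression in Merkel cells. Prmt8, an arginine methyltransferase of the plasma membrane known from brain, measured 121 and 181 CPM in Merkel libraries 1 and 2, and 0 and 0 CPM in IFE libraries 1 and 2, at least 2248-fold higher when the IFE group is set to 3 counts in all (log2 fold change 14.41, SE 1.20, edgeR adjusted p = 5.02e-05). Insrr, a receptor of the insulin receptor family, measured 119.8 and 165 CPM in the Merkel libraries and was at least 2116-fold higher. Dnah5, a heavy chain of axonemal dynein, measured 61.8 and 115 CPM there and was at least 1318-fold higher. These genes were present in both Merkel libraries and had 0 counts in both IFE libraries. Dnaic2, an intermediate chain of the same motor, was at least 566-fold higher (37.3 and 38.8 CPM in Merkel cells). Cdh10, a cadherin of neurons, Cntnap3, a neurexin-like adhesion protein, and Timp4, an inhibitor of metalloproteinases, were at least 1008-fold, 798-fold and 881-fold higher. Cacng5, Chrna3, Tmem130, Slc17a6 and Cacna2d4 completed the 12 largest, and of these 12 the call of Cacna2d4 was lost without Merkel library 2.

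By FPKM, which is scaled to transcript length and so allows genes to be set side by side, the 10 most abundant of the genes higher in Merkel cells included the noncoding RNAs Miat and Neat1 and the peptide genes Cpe and Penk. Ccer2, a coiled-coil gene with a short transcript, measured 47955 and 31342 FPKM in Merkel libraries 1 and 2 against 23.6 and 21 FPKM in the IFE libraries, and it shares 29.8% of its exonic bases with Nfkbib, so its level is uncertain. Miat, a long noncoding RNA known from neurons, measured 2197 and 3030.0 FPKM against 3.05 and 1.39 FPKM (log2 fold change 9.94, SE 0.64, edgeR adjusted p = 5.74e-06), with 30.4% of its exonic bases shared with Gm26953. Cpe, the carboxypeptidase that trims peptide hormones, measured 857 and 1002 FPKM against 3.05 and 0.925 FPKM. Each of the 3 was far higher in both Merkel libraries than in either IFE library. Penk, the precursor of enkephalins, measured 654 and 563 FPKM against 47.3 and 20.1 FPKM, and on the CPM scale log2 fold change 3.98, SE 0.61, edgeR adjusted p = 0.00139. Aplp2, a relative of the amyloid precursor protein, Klf7, a Krüppel-like factor of sensory neurons, Nrbp2, the RNA helicase gene Ddx17 and the noncoding RNA Neat1 were also called higher, with log2 fold changes from 1.53 (Ddx17) to 3.59 (Klf7, which shares 39.4% of its exonic bases with Gm26649).

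Transcription factors of the Merkel lineage, among them the sort gene Atoh1, were called in 1 direction. Of 29 members 21 passed the filter on low counts, 14 were higher and 0 lower (11 higher without IFE library 2), with a median log2 fold change over the tested members of 9.21, or 7.74 with genes absent from IFE cells at their bound, against -0.06 over all genes tested. The 8 members below the filter are not in this median, and the filter kept genes that were high in a single group. The called members included Atoh1, Sox2, Isl1, Pou4f3, Gfi1, Insm1, Myt1, St18, Lhx3, Nhlh1, Hes6, Prox1 and Neurod1, among them proneural factors and the zinc finger factors that act with them. Some of these calls needed IFE library 2, and which ones is not given here. Insm1, a zinc finger repressor of endocrine cells and neurons, measured 714 and 559.5 CPM in the Merkel libraries and 0.38 and 0.343 CPM in the IFE libraries (log2 fold change 10.76, SE 0.59, edgeR adjusted p = 2.18e-06). Myt1, a zinc finger factor of neuronal differentiation, measured 557 and 601 CPM in the Merkel libraries and 0.326 and 0.229 CPM in the IFE libraries (log2 fold change 11.02, SE 0.47, edgeR adjusted p = 4.90e-07). For Isl1 the test gave log2 fold change 10.59, SE 0.53, edgeR adjusted p = 9.20e-07. Each IFE library held less than 1 CPM of these 3 genes. Tcf4, the E protein that pairs with proneural factors, measured 338 and 335 CPM against 216 and 80.3 CPM and did not pass the threshold (log2 fold change 1.19, SE 0.47, edgeR adjusted p = 0.11).

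The factor that represses neuronal genes outside neurons moved the other way. Rest measured 18.9 and 11.2 CPM in the Merkel libraries and 101 and 86.6 CPM in the IFE libraries (log2 fold change -2.64, SE 0.46, edgeR adjusted p = 0.00294). Of 35 genes of REST and chromatin repression 4 were higher and 4 lower (3 and 3 without IFE library 2, 2 and 1 without Merkel library 1 or IFE library 1, 2 and 3 without Merkel library 2, and 4 and 2 without either paw IFE library). All 35 were tested and 27 did not pass, where 15.4% of all genes tested were called. Rcor2, a corepressor subunit that works with REST, was higher at 133 and 116 CPM against 3.2 and 13.6 CPM (log2 fold change 3.88, SE 0.64, edgeR adjusted p = 0.0022). Hdac9, a class II histone deacetylase, was higher at 102 and 193 CPM against 2.99 and 1.07 CPM. Cbx7 and Jarid2, of the polycomb complexes, had log2 fold changes of 3.23 and 1.42, and Ctdsp1, a phosphatase that acts with REST, -1.76. The call of Cbx7 was lost without any 1 of the 4 back libraries, that of Jarid2 without either Merkel library or IFE library 1, and that of Ctdsp1 without Merkel library 1 or IFE library 1. Among splicing regulators of neurons and epithelia 14 of 32 were higher and 4 lower (12 and 2 without IFE library 2 and 11 and 1 without Merkel library 2). Rbm24, an RNA binding protein of muscle and sensory hair cells, measured 203 and 197 CPM in the Merkel libraries and 0 and 0.114 CPM in the IFE libraries (log2 fold change 11.43, SE 0.75, edgeR adjusted p = 6.42e-06). Rbfox2, Msi2 and Khdrbs3 rose by 2.33, 2.22 and 5.25 on the log2 scale, and Elavl2, Elavl3 and Elavl4, the neuronal Hu proteins, were among the higher members. Mbnl1, which favours splicing patterns of differentiated cells, measured 196 and 193 CPM against 503 and 697 CPM (log2 fold change -1.62, SE 0.31, edgeR adjusted p = 0.00481), and Qk 205 and 195 CPM against 620.0 and 506 CPM, a call lost without Merkel library 2.

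Keratins divided along the same line. Krt8, a keratin of simple epithelia, measured 282 and 173 CPM in the Merkel libraries and 0.271 and 0.229 CPM in the IFE libraries (log2 fold change 9.80, SE 1.19, edgeR adjusted p = 0.000309). Krt18, its partner, measured 46.1 and 35.8 CPM in the Merkel libraries and 0.0543 and 0.496 CPM in the IFE libraries (log2 fold change 7.10, SE 1.51, edgeR adjusted p = 0.00879). Both rose, as did Krt20 (log2 fold change 10.95, SE 0.48, edgeR adjusted p = 4.90e-07), so 3 of 5 simple epithelial keratins were higher. Krt7 measured 167 and 130.1 CPM against 3.53 and 105 CPM: IFE library 2 alone among the IFE libraries approached the Merkel level, and the log2 fold change was 1.45 with it, not past the threshold, and 5.39 without it, where the gene was called. Of 21 keratins of stratified epithelium none was higher and 6 were lower (6 without IFE library 2, 3 without Merkel library 2, and 10 and 11 without paw Merkel library 1 and paw Merkel library 2). Krt5, the basal type II keratin, measured 419 and 546 CPM in the Merkel libraries and 26604 and 15679 CPM in the IFE libraries (log2 fold change -5.45, SE 0.54, edgeR adjusted p = 7.74e-05). Krt15, another basal keratin, measured 114 and 145 CPM against 2826 and 4322 CPM (log2 fold change -4.79, SE 0.50, edgeR adjusted p = 0.00012). The Merkel libraries thus carried lower but measurable levels of both. Krt1, the keratin of the layer above, measured 922 and 619.8 CPM against 3970.3 and 2199 CPM and was not called (log2 fold change -2.0, SE 0.78, edgeR adjusted p = 0.109). Krt9 was called lower at -6.85, and at -2.39 without IFE library 2, and the call was lost without Merkel library 2.

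**Figure D2:**
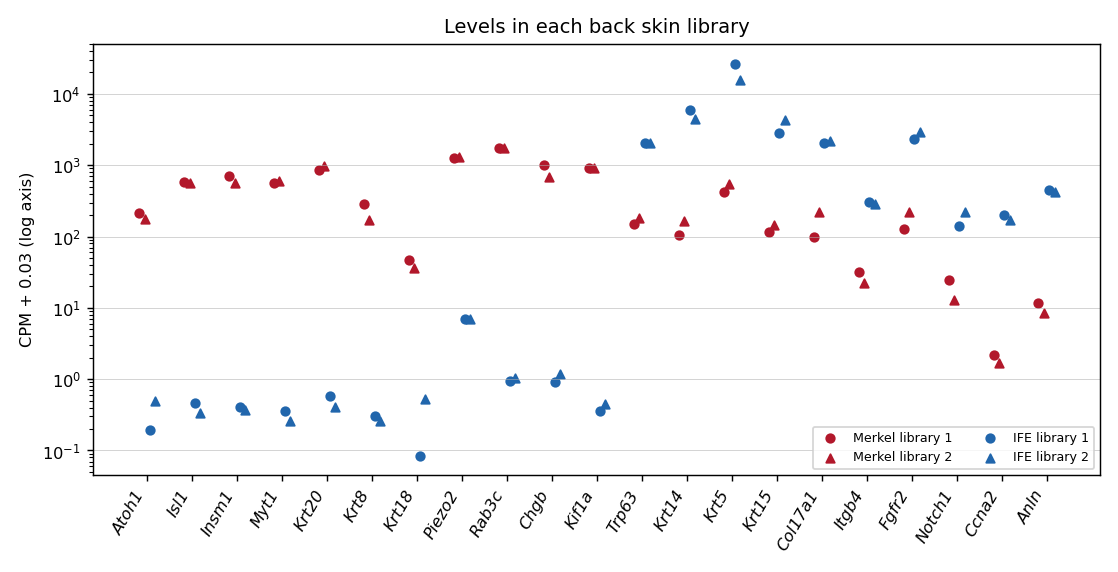
Level of 21 genes (horizontal axis) in each of the 4 back libraries, as CPM plus 0.03 on a log axis; red symbols are Merkel libraries 1 (circle) and 2 (triangle) and blue symbols IFE libraries 1 and 2. From Atoh1 to Kif1a the Merkel libraries lie above both IFE libraries, and from Trp63 to Anln they lie below. Replicates lie apart in some genes near 0 and in some others, such as Col17a1 with 99.1 and 223 CPM in the Merkel libraries.

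Genes of the machinery that docks and fuses secretory vesicles were called in 1 direction. Of 57 genes 47 were tested, 28 were higher, 0 lower and 19 not past the threshold (25 higher without IFE library 2). Log2 fold changes of the tested members had their median at 5.23. It was 5.11 when members lacking any count in 1 cell type were placed at their bound, against -0.06 over all genes tested. The 10 members below the filter do not enter it, and that filter retained genes high in a single group. Rab3c, a small GTPase of vesicles, measured 1723 and 1736 CPM in Merkel libraries 1 and 2, and 0.923 and 0.992 CPM in IFE libraries 1 and 2 (log2 fold change 10.81, SE 0.62, edgeR adjusted p = 2.90e-06). Sv2c, a glycoprotein of the vesicle membrane, measured 478 and 602 CPM in the Merkel libraries and 0.434 and 0.343 CPM in the IFE libraries (log2 fold change 10.43, SE 0.52, edgeR adjusted p = 9.20e-07). Syn2, a synapsin that tethers vesicles, measured 154 and 165 CPM in the Merkel libraries and 0.0543 and 0.0382 CPM in the IFE libraries (log2 fold change 11.59, SE 0.72, edgeR adjusted p = 5.00e-06). In all 3 the Merkel libraries lay close together and the IFE libraries were near 0. Syt13, a synaptotagmin that lacks calcium binding, measured 631 and 629 CPM against 4.29 and 5.46 CPM (log2 fold change 7.01, SE 0.41, edgeR adjusted p = 3.46e-06). The core fusion genes Snap25, Vamp1 and Vamp2, the complexins Cplx1 and Cplx2, the calcium sensors Syt1 and Syt7, the priming factors Unc13a, Unc13b and Cadps, and the active zone genes Rims2, Rimbp2, Pclo, Erc1 and Erc2 were called higher as well. Rab3d, a member typical of exocrine granules, measured 54.8 and 8.6 CPM against 51.5 and 31.1 CPM and was not called (log2 fold change -0.38, SE 0.96, edgeR adjusted p = 0.834).

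Promoters of these genes were searched for CAGCTG, a form of the E-box that basic helix-loop-helix factors bind, in the 250 bases before each RefSeq start (the letters are their own reverse complement, so both strands are searched at once). It stood in 16 of 55 windows of the vesicle genes (29.1%), in 7 of 36 windows of the Merkel lineage factors (19.4%), in 15.8% of windows of all genes called higher, in 11.8% of those called lower and in 12.4% of windows of all genes tested. Another E-box form, CAGATG, searched with its reverse complement on the other strand, stood in 7.27% of windows of the vesicle genes, in 22.2% of those of the lineage factors and in 10.7% of windows of all genes tested. All listed vesicle genes together thus lay above the share of all genes tested for the first form and below it for the second. Windows of the called vesicle genes lay above it for both, with 6 of 23 (26.1%) for the first form and 3 of 23 (13%) for the second. A match describes the letters and not a bound site, and a gene can have several windows. The last 150 bases before the start are printed below for 3 vesicle genes and Isl1, chosen because they hold the motif and were called higher, with CAGCTG in capitals. They lie at chr13:110280207-110280356 (minus strand) for Rab3c, chr10:109009112-109009261 (minus strand) for Syt1, chr5:108550028-108550177 (minus strand) for Cplx1 and chr13:116309689-116309838 (minus strand) for Isl1 in RefSeq's GRCm38.p6, and are written 5′ to 3′ in the direction of the gene.
Rab3c: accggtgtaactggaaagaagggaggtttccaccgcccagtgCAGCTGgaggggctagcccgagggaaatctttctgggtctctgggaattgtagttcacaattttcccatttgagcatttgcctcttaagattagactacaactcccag
Syt1: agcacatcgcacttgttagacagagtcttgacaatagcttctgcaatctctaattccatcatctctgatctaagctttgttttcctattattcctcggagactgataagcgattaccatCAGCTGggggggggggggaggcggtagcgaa
Cplx1: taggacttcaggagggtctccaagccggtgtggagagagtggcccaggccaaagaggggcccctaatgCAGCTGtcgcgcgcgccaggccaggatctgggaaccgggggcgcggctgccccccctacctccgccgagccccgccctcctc
Isl1: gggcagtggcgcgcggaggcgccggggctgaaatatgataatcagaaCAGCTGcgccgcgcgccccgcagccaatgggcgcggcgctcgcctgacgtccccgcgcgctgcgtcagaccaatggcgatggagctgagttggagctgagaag
Their levels in Merkel libraries 1 and 2 against IFE libraries 1 and 2 were 1723 and 1736 CPM against 0.923 and 0.992 CPM for Rab3c, 352 and 359 CPM against 3.96 and 2.4 CPM for Syt1 and 52.4 and 11.4 CPM against 0 and 0.42 CPM for Cplx1.

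Among granule proteins and the enzymes that mature peptide hormones 11 of 20 members were higher (10 without IFE library 2) and 0 lower. Chgb, a granin that fills dense-core granules, measured 1003 and 688 CPM in the Merkel libraries and 0.868 and 1.14 CPM in the IFE libraries (log2 fold change 9.69, SE 0.67, edgeR adjusted p = 8.79e-06). Chga, its relative, measured 138 and 98.3 CPM in the Merkel libraries and 0.38 and 0.0763 CPM in the IFE libraries. Vwa5b2, which encodes a protein with a von Willebrand factor A domain, measured 543 and 454 CPM in the Merkel libraries and 0.38 and 0.42 CPM in the IFE libraries (log2 fold change 10.25, SE 0.49, edgeR adjusted p = 7.58e-07). Each of these was high in both Merkel libraries and near 0 in both IFE libraries. The convertases Pcsk1 and Pcsk2 and the amidating enzyme Pam were among the other higher members. Peg3, an imprinted zinc finger gene, differed more between replicates than between cell types at 952 and 2303 CPM against 837 and 3256 CPM, and was not called.

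Many genes of peptides and transmitters had too few counts for the test. Of 38 neuropeptide and hormone genes 25 were below the filter, and of the 13 tested 3 were higher and 0 lower, where 7.99% of all genes tested were higher (2 higher without IFE library 2). Cck, which encodes cholecystokinin, measured 88 and 46.2 CPM in the Merkel libraries and 0.109 and 0 CPM in the IFE libraries (log2 fold change 10.27, SE 1.19, edgeR adjusted p = 0.000241). Adcyap1, the PACAP precursor, had few counts at 8.6 and 4.1 CPM against 0 and 0 CPM, was at least 94.5-fold higher in Merkel cells, and its call was lost without either IFE library. Of 32 genes of transmitter synthesis, loading and breakdown 19 were tested, 3 were higher and 2 lower, where 15.4% of all genes tested were called (4 and 2 without IFE library 2). Slc17a6, a vesicular glutamate transporter, measured 42.1 and 63.2 CPM in the Merkel libraries, had 0 counts in both IFE libraries and was at least 784-fold higher. Slc17a8, another of the family, measured 103 and 97.4 CPM in the Merkel libraries and 0.0543 and 0.0382 CPM in the IFE libraries (log2 fold change 10.91, SE 0.95, edgeR adjusted p = 3.70e-05). Both were present in each Merkel library. Th, the rate-limiting enzyme of catecholamine synthesis, measured 40.2 and 6.84 CPM against 0.0543 and 0 CPM (log2 fold change 9.58, SE 1.76, edgeR adjusted p = 0.00498), with the Merkel libraries far apart. Both members called lower were uptake transporters. Slc1a3, for glutamate, measured 2.28 and 1.47 CPM against 64 and 212 CPM. Slc6a4, for serotonin, measured 0.456 and 0.684 CPM against 25.2 and 48.8 CPM. Glul, the enzyme of glutamine synthesis, measured 276 and 269.8 CPM against 67.2 and 156 CPM and was not called.

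Ion channel genes were grouped by the ion they conduct. Calcium channel genes had 8 of 20 higher and 0 lower (7 higher without IFE library 2). Cacna1a, the pore of presynaptic P/Q-type channels, measured 278 and 322 CPM in the Merkel libraries and 0.977 and 1.26 CPM in the IFE libraries (log2 fold change 8.05, SE 0.60, edgeR adjusted p = 1.36e-05). Cacna1b, of the N-type, measured 284 and 369 CPM in the Merkel libraries and 0.38 and 0.153 CPM in the IFE libraries, and Cacna1c, of the L-type, 132 and 228 CPM in the Merkel libraries and 1.41 and 1.98 CPM in the IFE libraries. Cacna2d1, an auxiliary subunit, measured 874 and 858 CPM in the Merkel libraries and 1.41 and 0.572 CPM in the IFE libraries (log2 fold change 9.79, SE 0.80, edgeR adjusted p = 2.22e-05). All 4 were high in both Merkel libraries and near 0 in both IFE libraries. Cacnb3, a cytoplasmic subunit, measured 122 and 86.2 CPM against 87.8 and 43.6 CPM and was not called.

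Potassium channel genes went in both directions, with 17 of 54 higher and 4 lower (13 and 2 without IFE library 2, 14 and 2 without Merkel library 1, 12 and 1 without Merkel library 2). Kcna4, a fast-inactivating voltage-gated channel, measured 324 and 564 CPM in the Merkel libraries and 0.271 and 0.305 CPM in the IFE libraries (log2 fold change 10.55, SE 0.79, edgeR adjusted p = 1.39e-05). Kcnd2, which carries the A-type current of dendrites, measured 57.8 and 108 CPM against 0.0543 and 0.0382 CPM, Kcnh2 (the hERG channel gene) 57.9 and 55.5 CPM against 0 and 0.0382 CPM, and Kcnh8 76.4 and 170.0 CPM against 0.0543 and 0.0763 CPM. These 4 rose from near 0. Kcnj15, an inward rectifier, was lower at 3.73 and 1.07 CPM against 77 and 80.8 CPM (log2 fold change -5.02, SE 0.77, edgeR adjusted p = 0.00139), and Kcnk2, a stretch-sensitive leak channel, at 1.22 and 0.0977 CPM against 71.6 and 34.7 CPM, a call lost without Merkel library 2. Of 20 sodium channel genes 3 were higher and 1 lower (2 and 1 without IFE library 2). Nalcn, the sodium leak channel, measured 272 and 363 CPM in the Merkel libraries and 0.109 and 1.26 CPM in the IFE libraries (log2 fold change 8.78, SE 1.19, edgeR adjusted p = 0.000664). Scn8a, a voltage-gated pore of neurons, measured 49.9 and 60.2 CPM against 0.326 and 1.56 CPM (log2 fold change 5.84, SE 1.32, edgeR adjusted p = 0.0126). Only 12 sodium channel genes were tested, and 8 did not pass, where 15.4% of all genes tested were called. The fibroblast growth factor homologues that bind sodium channels split: Fgf13 measured 0 and 0 CPM against 32.2 and 25.9 CPM and was at least 226-fold lower, and Fgf14 measured 3.58 and 19.2 CPM against 0 and 0 CPM, a call lost without Merkel library 2 or without either IFE library.

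Of 42 mechanically gated and sensory channel genes 7 were higher and 1 lower (5 and 1 without IFE library 2, 4 and 0 without IFE library 1, 6 and 0 without Merkel library 1). Piezo2 measured 1266 and 1301 CPM in the Merkel libraries and 7.06 and 6.95 CPM in the IFE libraries (log2 fold change 7.52, SE 0.50, edgeR adjusted p = 7.32e-06), so IFE cells held a low level that was nearly equal in both libraries. Tmc2, of the transmembrane channel-like family of hair cells, measured 57.1 and 21.9 CPM against 0.217 and 0 CPM (log2 fold change 8.53, SE 1.59, edgeR adjusted p = 0.00445). P2rx6, an ATP receptor, measured 20.7 and 34.7 CPM against 0 and 0.0382 CPM, and Hcn3, a pacemaker channel, 11.2 and 55.4 CPM against 0.0543 and 0 CPM. Trpm7, a broadly expressed channel with a kinase domain, measured 233 and 317 CPM against 269 and 239.6 CPM and was not called. Like it, 23 of the 31 listed channels tested did not pass, where 15.4% of all genes tested were called. Tmc7 was lower at 13.2 and 13.5 CPM against 89.8 and 26.6 CPM, a call lost without any 1 of 5 libraries (both Merkel libraries, IFE library 1 and either paw IFE library).

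Receptors for transmitters had 11 of 82 members higher and 1 lower, with 37 below the filter (12 and 0 without IFE library 2, 10 and 0 and 9 and 0 without Merkel library 1 and Merkel library 2, and 12 and 3 without either paw Merkel library). Grik3, a kainate receptor subunit, measured 149 and 68.1 CPM in the Merkel libraries and 0.0543 and 0 CPM in the IFE libraries (log2 fold change 11.82, SE 1.16, edgeR adjusted p = 7.74e-05). Gria4, an AMPA receptor subunit, measured 141 and 190.1 CPM in the Merkel libraries and 0.109 and 0.229 CPM in the IFE libraries. Grin2c, an NMDA receptor subunit, measured 68.1 and 91.6 CPM in the Merkel libraries and 0 and 0.0763 CPM in the IFE libraries. A subunit of each of these 3 classes was called higher. Chrna3, a nicotinic acetylcholine receptor subunit, measured 42.8 and 37.3 CPM against 0 and 0 CPM and was at least 596-fold higher. Chrnb4, a subunit that pairs with it, measured 29.4 and 31.5 CPM against 0.0543 and 0.0763 CPM (log2 fold change 8.70, SE 1.24, edgeR adjusted p = 0.000906). Gria3, the single lower member, measured 0 and 0 CPM against 0.0543 and 30.6 CPM: its fall rested on IFE library 2, without which the log2 fold change was -3.06 and not called. P2ry1, an ADP receptor, measured 6.16 and 16.6 CPM against 71.2 and 33.2 CPM and was not called. The same held for 33 of the 45 listed receptors tested, where 15.4% of all genes tested were called. Synaptic and neuronal adhesion genes had 18 of 63 higher and 3 lower (16 and 4 without IFE library 2). Nfasc, which clusters channels at axon initial segments, measured 1046 and 1244 CPM in the Merkel libraries and 1.57 and 0.687 CPM in the IFE libraries (log2 fold change 10.00, SE 0.63, edgeR adjusted p = 5.19e-06). Nrxn3, a presynaptic neurexin, measured 187 and 249 CPM in the Merkel libraries and 0.0543 and 0.114 CPM in the IFE libraries (log2 fold change 11.16, SE 0.84, edgeR adjusted p = 1.39e-05), and Cadm3, a synaptic adhesion molecule, 259.9 and 321 CPM in the Merkel libraries and 0.326 and 0.687 CPM in the IFE libraries. Tenm2, a teneurin, went the other way at 18.8 and 18.5 CPM in the Merkel libraries and 354 and 289.8 CPM in the IFE libraries (log2 fold change -4.11, SE 0.36, edgeR adjusted p = 3.85e-05), as did Chl1, a relative of L1 at 20.6 and 15.5 CPM against 217 and 121 CPM.

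The neuronal cytoskeleton and its motors had 22 of 52 members higher and 2 lower (22 and 2 without IFE library 2, 17 and 1 without Merkel library 1, 18 and 0 without Merkel library 2). Kif1a, the kinesin that carries dense-core and synaptic vesicle precursors, measured 920.3 and 902 CPM in the Merkel libraries and 0.326 and 0.42 CPM in the IFE libraries (log2 fold change 11.21, SE 0.46, edgeR adjusted p = 4.90e-07), the smallest adjusted p of the comparison together with Krt20 and Myt1. Kif5a, a kinesin heavy chain of neurons, measured 228 and 161 CPM against 0.109 and 0.229 CPM, and Kif5c, another, 151 and 90 CPM against 0.38 and 0.458 CPM. Crmp1, which regulates growth cone microtubules, measured 68.5 and 97.8 CPM against 0.0543 and 0.343 CPM. All were high in both Merkel libraries. Stmn1, which destabilizes microtubules and is abundant in dividing cells, was lower at 15.7 and 7.43 CPM against 97.9 and 94.8 CPM (log2 fold change -3.06, SE 0.68, edgeR adjusted p = 0.0113), a call lost without Merkel library 2. Map6 was lower at 0 and 0.0977 CPM against 4.45 and 21.6 CPM, a call lost without either Merkel library, and Map4 measured 231 and 397 CPM against 647 and 566 CPM and was not called.

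**Figure D3:**
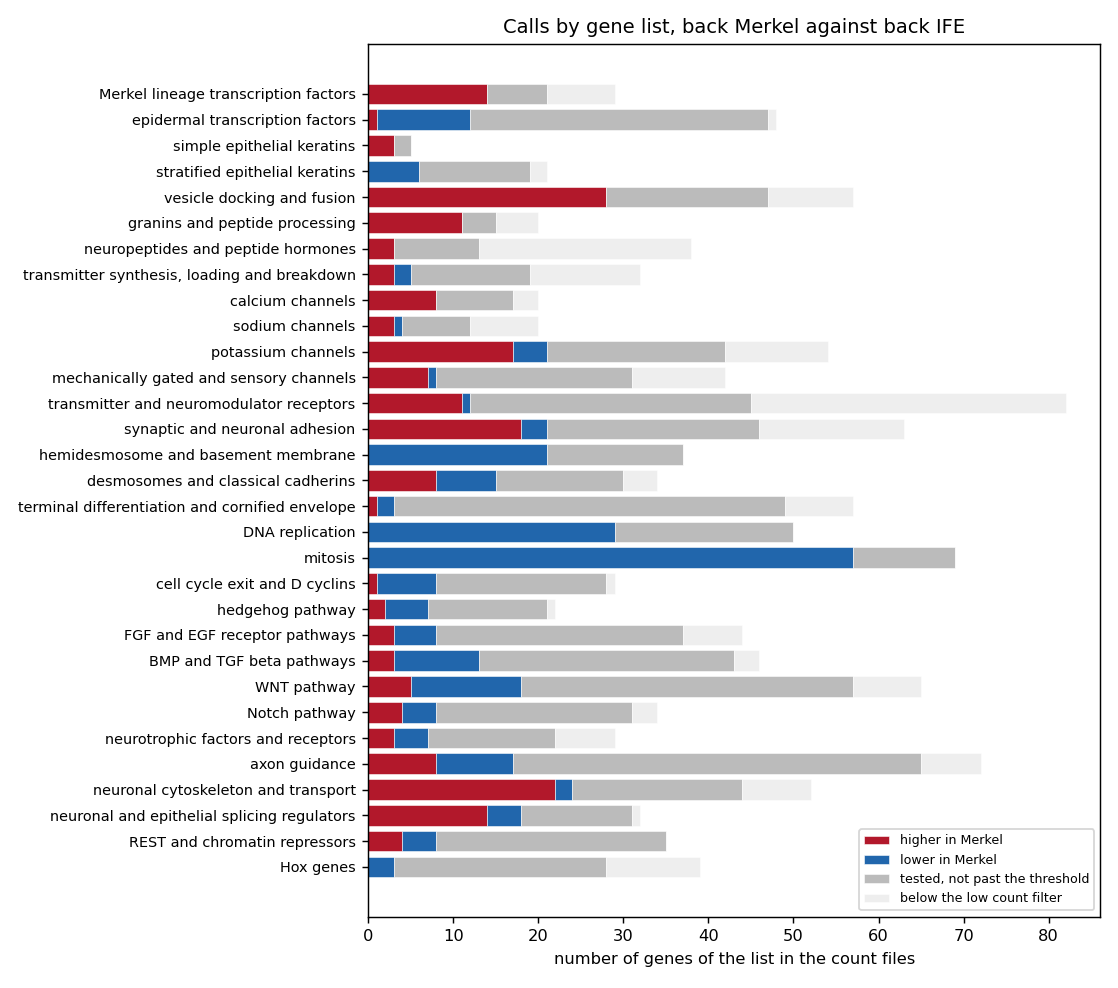
Number of genes (horizontal axis) of 31 gene lists that were higher in Merkel cells (red), lower (blue), tested but not past the threshold (dark grey) or below the low count filter (light grey). The vesicle list has 28 higher and 0 lower, and the mitosis list 57 lower and 0 higher; over all genes tested 7.99% were higher and 7.45% lower.

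Genes that anchor the basal layer to the basement membrane were lower in part: of 37 members, all of which were tested, 21 were lower, 0 higher and 16 not past the threshold (15 lower without IFE library 2), with a median log2 fold change of -2.0. Col17a1, the transmembrane collagen of hemidesmosomes, measured 99.1 and 223 CPM in the Merkel libraries and 2018 and 2183 CPM in the IFE libraries (log2 fold change -3.70, SE 0.44, edgeR adjusted p = 0.000267). Itgb4, the integrin subunit of the same junction, measured 32.1 and 22.3 CPM in the Merkel libraries and 306 and 288 CPM in the IFE libraries (log2 fold change -3.45, SE 0.41, edgeR adjusted p = 0.000269). Lama3, a chain of the laminin that these integrins bind, measured 73.4 and 93.6 CPM against 873 and 800.3 CPM, and Col7a1, the collagen of anchoring fibrils, 58.4 and 65.8 CPM against 453 and 634 CPM. In each the Merkel libraries were lower without overlap, and the transcripts were still present. Plec, the plectin that links hemidesmosomes to keratin and also serves other junctions, measured 707 and 857 CPM against 854 and 934 CPM and was not called (log2 fold change -0.19, SE 0.36, edgeR adjusted p = 0.76).

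Desmosomal genes and cadherins went in both directions. Of 34 genes 8 were higher and 7 lower (6 and 6 without IFE library 2, 6 and 4 without Merkel library 1, 7 and 4 without Merkel library 2, 5 and 5 without IFE library 1, and 9 and 10 and 9 and 10 without paw Merkel library 1 and paw Merkel library 2). Dsg3, a desmosomal cadherin of the basal layers, measured 17.5 and 14.9 CPM in the Merkel libraries and 242 and 276 CPM in the IFE libraries (log2 fold change -4.0, SE 0.40, edgeR adjusted p = 8.01e-05). Dsc3, its desmocollin partner, measured 173 and 207 CPM in the Merkel libraries and 1417 and 1513 CPM in the IFE libraries (log2 fold change -2.95, SE 0.31, edgeR adjusted p = 0.000114). Both were lower without overlap. Dsc2, the desmocollin of simple epithelia, rose at 123 and 129.6 CPM in the Merkel libraries and 11.3 and 10.8 CPM in the IFE libraries (log2 fold change 3.52, SE 0.46, edgeR adjusted p = 0.000475). Pkp2, the plakophilin of the same tissues and of heart, measured 53.3 and 127 CPM against 0.109 and 1.6 CPM (log2 fold change 6.67, SE 1.07, edgeR adjusted p = 0.00186). Pkp1 and Pkp3, the plakophilins of stratified epithelium, were among the lower members. Cdh2, the N-cadherin gene, measured 31.9 and 16.3 CPM against 0 and 0.0763 CPM, and Cdh10 was named above among the largest rises. Dsp, the desmoplakin common to all desmosomes, measured 3324 and 2703 CPM against 5279.9 and 6001 CPM and was not called (log2 fold change -0.90, SE 0.32, edgeR adjusted p = 0.0758). Perp, a desmosomal protein and target of Trp63, had 507 and 608 FPKM against 2691 and 2697 FPKM, and on the CPM scale log2 fold change -2.73, SE 0.37, edgeR adjusted p = 0.000697.

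Transcription factors of the epidermis had 11 of 48 lower and 1 higher (9 and 2 without IFE library 2, 6 lower without Merkel library 2, and 22 and 23 lower without paw Merkel library 1 and paw Merkel library 2). For Trp63 the test gave log2 fold change -3.65, SE 0.35, edgeR adjusted p = 7.32e-05. Yap1, the Hippo pathway coactivator, measured 19.4 and 19.8 CPM in the Merkel libraries and 302 and 263 CPM in the IFE libraries (log2 fold change -3.85, SE 0.36, edgeR adjusted p = 5.47e-05). Grhl2, a grainyhead-like factor of epithelia, measured 16.5 and 17.7 CPM against 126 and 167 CPM, and Nfib, a nuclear factor of hair follicle and epidermis, 173 and 203 CPM against 738 and 913 CPM. Nfatc1, a calcium-regulated factor of quiescent follicle stem cells, was the higher member at 158 and 137 CPM in the Merkel libraries and 25.6 and 28 CPM in the IFE libraries (log2 fold change 2.46, SE 0.46, edgeR adjusted p = 0.00467). Tfap2b, an AP-2 factor, measured 3551 and 3653 CPM against 675 and 2320.1 CPM; it was not called with all libraries and rose by 2.41 on the log2 scale, past the threshold, without IFE library 2. Among 57 genes of terminal differentiation 1 was higher and 2 were lower, beside 15.4% of all genes called (1 and 5 without IFE library 2, 0 and 0 without Merkel library 2, 1 and 7 without paw Merkel library 1, 1 and 10 without paw Merkel library 2, 0 and 1 without Merkel library 1 or IFE library 1, and 0 and 3 with paw IFE library 2 left out). Sptlc3, of ceramide synthesis, measured 12.9 and 4.49 CPM against 81 and 86.7 CPM, a call lost without Merkel library 2. Tgm3, a transglutaminase of cornification, measured 35.9 and 64.9 CPM against 299 and 260.2 CPM and did not pass (log2 fold change -2.47, SE 0.77, edgeR adjusted p = 0.0509).

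The most abundant of the genes lower in Merkel cells were, by FPKM, the basal keratins and H19. Krt5 measured 19866 and 11329.8 FPKM in IFE libraries 1 and 2 against 333 and 448 FPKM in the Merkel libraries, and Krt14 8725 and 6175 FPKM against 166 and 236 FPKM. H19, an imprinted noncoding RNA of fetal and newborn tissue, measured 5879 and 6349 FPKM against 179.8 and 259.6 FPKM (log2 fold change -5.03, SE 0.60, edgeR adjusted p = 0.000271). The transcripts were measured in the Merkel libraries at a small share of the IFE level, and which cells carried them was not tested. Fth1, a ferritin chain, and Rpl4, a ribosomal protein, were called lower at -2.39 and -2.07 on the log2 scale, and both have processed pseudogenes that can share reads. Stfa3 belongs to a cluster of near-identical stefin genes, so its 2379.6 and 1158 FPKM in IFE cells is uncertain. The calls of Atp5b, Hsp90ab1, Rpl4 and Stfa3 were lost without Merkel library 2, and those of Atp5b, Hsp90ab1 and Stfa3 also without Merkel library 1. Atp5b was further lost without IFE library 1 and Hsp90ab1 without IFE library 2.

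Of the 38 lists mitosis had the largest share of members lower in back Merkel cells. Of the 69 mitosis genes, all tested, 57 were lower and 0 higher (52 lower without IFE library 2), with a median log2 fold change of -4.18. Anln, which scaffolds the contractile ring, measured 11.5 and 8.3 CPM in Merkel libraries 1 and 2, and 453 and 426 CPM in IFE libraries 1 and 2 (log2 fold change -5.47, SE 0.38, edgeR adjusted p = 8.92e-06). Ccna2, the cyclin of S phase and G2, measured 2.13 and 1.66 CPM in the Merkel libraries and 202 and 168 CPM in the IFE libraries (log2 fold change -6.60, SE 0.59, edgeR adjusted p = 4.32e-05). Aspm, of the spindle poles, measured 18.5 and 13.6 CPM in the Merkel libraries and 300.4 and 424 CPM in the IFE libraries, and Cenpe, a kinetochore motor, 44 and 57.2 CPM in the Merkel libraries and 634 and 1010.5 CPM in the IFE libraries (log2 fold change -4.02, SE 0.37, edgeR adjusted p = 5.32e-05 for Cenpe). Both Merkel libraries were below both IFE libraries in all 4 genes. Racgap1, a regulator of cytokinesis, measured 3.27 and 38.5 CPM against 146 and 135 CPM: the Merkel libraries were far apart, and the gene did not pass (log2 fold change -2.76, SE 0.87, edgeR adjusted p = 0.0545). DNA replication genes had 29 of 50 lower and 0 higher (25 lower without IFE library 2 and 19 without Merkel library 2). Pola1, the polymerase that starts each strand, measured 9.05 and 8.21 CPM in the Merkel libraries and 116 and 136 CPM in the IFE libraries (log2 fold change -3.87, SE 0.43, edgeR adjusted p = 0.000184), without overlap. Mcm4, a subunit of the replicative helicase, measured 22.8 and 31.8 CPM against 195 and 208 CPM, and Mcm6, another, 22.7 and 8.5 CPM against 222 and 258 CPM. Rrm1, of deoxynucleotide synthesis, measured 44.2 and 74.4 CPM against 373 and 466 CPM. E2f8, a repressor of the E2F family, was split between Merkel libraries at 3.12 and 49.6 CPM against 101 and 119 CPM and was not called.

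Genes of cell cycle entry and exit were fewer. Of 29 members 1 was higher and 7 were lower (1 and 6 without IFE library 2). Ccnd2, a D cyclin, measured 91.4 and 78.6 CPM in the Merkel libraries and 929 and 1026 CPM in the IFE libraries (log2 fold change -3.52, SE 0.35, edgeR adjusted p = 8.33e-05), and Cdk6, its kinase, 102 and 86.9 CPM in the Merkel libraries and 628 and 1386 CPM in the IFE libraries (log2 fold change -3.41, SE 0.41, edgeR adjusted p = 0.000309). Ccnd1 measured 29.4 and 17.8 CPM against 254 and 159.8 CPM, with 23.4% of its exonic bases shared with a neighbouring gene. These were lower in both Merkel libraries. Rb1, the retinoblastoma protein that restrains entry into S phase, was the higher member at 315 and 266 CPM in the Merkel libraries and 62.8 and 60.5 CPM in the IFE libraries (log2 fold change 2.24, SE 0.35, edgeR adjusted p = 0.00165). Btg1, an antiproliferative factor, measured 215 and 178 CPM against 186 and 265 CPM and was not called. The same held for 20 of the 28 members tested, where 15.4% of all genes tested were called.

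Mitotic genes are known for a shared promoter layout, the CHR element TTTGAA downstream of CCAAT boxes, and both were searched on both strands in the 250 bases before the start (TTCAAA and ATTGG are the reverse complements). Windows with both motifs made up 22 of the 63 of mitosis genes (34.9%), 12% of those of DNA replication genes, and 4.04% of windows of all genes tested. A CHR downstream of at least 1 CCAAT box, nearer the gene start, stood in 16 of these 22 mitosis windows, and in the other 6 it lay upstream of every CCAAT box. Windows with the downstream order made up 25.4% of mitosis windows and 1.82% of those of all genes tested. The CHR letters alone stood in 39.7% of mitosis windows against 10.9% of windows of all genes tested, and CCAAT in 73% against 34.5%. The 150 bases before the start are printed for 4 mitosis genes that hold both motifs and were called lower, chosen after the search without regard to the order, with the CHR and CCAAT letters of either strand in capitals. The windows, from RefSeq's GRCm38.p6 and written 5′ to 3′ in the direction of the gene, lie at chr7:135716380-135716529 (minus strand) for Mki67, chr19:37376232-37376381 (plus strand) for Kif11, chr8:22185820-22185969 (minus strand) for Ckap2 and chr11:99024190-99024339 (minus strand) for Top2a.
Mki67: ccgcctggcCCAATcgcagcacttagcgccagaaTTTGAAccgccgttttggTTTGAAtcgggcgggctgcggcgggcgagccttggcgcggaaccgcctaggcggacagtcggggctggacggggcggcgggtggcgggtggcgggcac
Kif11: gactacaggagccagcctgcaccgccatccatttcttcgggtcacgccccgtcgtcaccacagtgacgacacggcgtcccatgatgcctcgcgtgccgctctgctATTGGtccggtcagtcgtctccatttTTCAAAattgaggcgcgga
Ckap2: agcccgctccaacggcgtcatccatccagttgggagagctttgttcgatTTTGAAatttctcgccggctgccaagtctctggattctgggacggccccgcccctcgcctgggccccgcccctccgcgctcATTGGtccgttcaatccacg
Top2a: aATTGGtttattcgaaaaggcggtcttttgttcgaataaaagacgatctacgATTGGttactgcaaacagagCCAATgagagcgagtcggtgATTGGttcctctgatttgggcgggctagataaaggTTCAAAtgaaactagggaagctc
Mki67, the proliferation antigen, measured 95.5 and 154 CPM against 1704 and 2849 CPM in the Merkel and IFE libraries, Kif11, the spindle kinesin, 17.8 and 25.5 CPM against 374 and 381 CPM, Ckap2 4.03 and 4.69 CPM against 92 and 104 CPM, and Top2a, which untangles sister chromatids, 17.8 and 71.5 CPM against 1112 and 1377 CPM. Their log2 fold changes were -4.19, -4.12, -4.49 and -4.80. In the printed Ckap2 stretch the CHR letters lie upstream of the CCAAT box, the reverse of the layout named above.

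**Figure D4:**
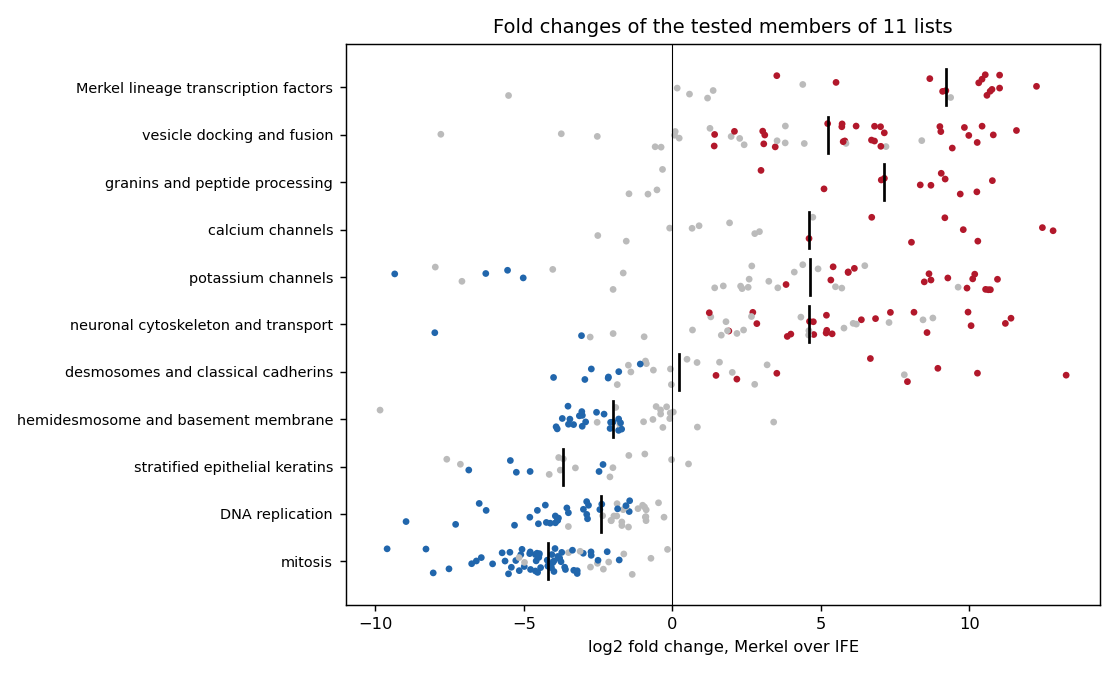
Log2 fold change, Merkel over IFE (horizontal axis), of every tested member of 11 lists, with red for called higher, blue for called lower, grey for not past the threshold and a black bar for the list's median. The medians run from 9.21 in the Merkel lineage factors to -4.18 in the mitosis genes, and some grey points lie as far from 0 as called genes.

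Signalling genes changed member by member. Most members tested did not pass: 14 of 21 in the hedgehog list, 30 of 43 in BMP and TGF beta, 39 of 57 in WNT and 23 of 31 in Notch. Over all genes tested 15.4% were called. In the hedgehog pathway 2 of 22 genes were higher and 5 lower (2 and 5 without IFE library 2). Smo, which transduces the signal, measured 10 and 5.57 CPM in the Merkel libraries and 198 and 116 CPM in the IFE libraries (log2 fold change -4.33, SE 0.74, edgeR adjusted p = 0.00277). Gli3, a transcription factor at its end, measured 0.456 and 0.586 CPM in the Merkel libraries and 79.8 and 96.5 CPM in the IFE libraries (log2 fold change -7.39, SE 0.81, edgeR adjusted p = 0.000172). Cdon, a coreceptor, measured 69.4 and 62.7 CPM against 314 and 741 CPM, and Gas1, another, 14.2 and 5.08 CPM against 509.6 and 437 CPM. All 4 were lower in both Merkel libraries. Disp2, a relative of the protein that releases hedgehog ligands, measured 8.37 and 30.6 CPM against 0 and 0 CPM and was at least 289.7-fold higher, and Scube1, a secreted protein of the family that aids release, had a log2 fold change of 5.75, or 11.5 without IFE library 1. Ptch1, the receptor and a target of the pathway, varied between IFE libraries at 291 and 458 CPM against 1155 and 267 CPM: it was not called, and fell by 1.63 on the log2 scale, past the threshold, without IFE library 2.

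Fgfr2, Fgfr3 and Egfr fell, and Erbb4 rose. In the list 37 members were tested and 29 did not pass, where 15.4% of all genes tested were called. Among 44 genes of FGF and EGF receptor signalling 3 were higher and 5 lower, as also without IFE library 2. Fgfr2, the receptor for keratinocyte growth factor, measured 129 and 219 CPM in the Merkel libraries and 2316 and 2883 CPM in the IFE libraries (log2 fold change -3.90, SE 0.39, edgeR adjusted p = 9.18e-05). Egfr measured 5.4 and 22.7 CPM in the Merkel libraries and 236 and 453 CPM in the IFE libraries (log2 fold change -4.62, SE 0.64, edgeR adjusted p = 0.000718), and Fgfr3 16.4 and 13.3 CPM against 115 and 229.8 CPM. Erbb4, a neuregulin receptor, rose at 373 and 438 CPM in the Merkel libraries and 0.923 and 0.114 CPM in the IFE libraries (log2 fold change 9.68, SE 0.91, edgeR adjusted p = 6.45e-05). Fgf9, a ligand, measured 15.4 and 16 CPM against 0.0543 and 0 CPM, a call lost without IFE library 2. Spred1, an inhibitor of the pathway, measured 94.9 and 98.5 CPM against 114 and 116 CPM and was not called.

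BMP and TGF beta genes had 3 of 46 higher and 10 lower (2 and 6 without IFE library 2, 2 and 5 without Merkel library 1, 1 and 4 without Merkel library 2, 0 and 9 without IFE library 1). Tgfbr3, a coreceptor, measured 10.8 and 19.7 CPM in the Merkel libraries and 117 and 227 CPM in the IFE libraries (log2 fold change -3.50, SE 0.48, edgeR adjusted p = 0.000679). Tgfbr2, the type II receptor for TGF beta, measured 13.2 and 14.8 CPM against 145 and 96.9 CPM. Both were lower in each Merkel library. Id2, a target of BMP signalling that inhibits helix-loop-helix factors, measured 0 and 0 CPM against 9.01 and 13.4 CPM and was at least 87.5-fold lower. Its relative Id3 was called lower at -3.11, but at -2.01 and not past the threshold without IFE library 2, and the call was lost without Merkel library 2 too. Tgfb3, a ligand, and Skil, a repressor of the pathway, had log2 fold changes of 2.44 and 1.64, calls lost without IFE library 1 and also without Merkel library 2 (Tgfb3) or Merkel library 1 (Skil).

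WNT genes had 5 of 65 higher and 13 lower (7 and 8 without IFE library 2). Lef1, a transcription factor of the pathway, measured 5.93 and 4.4 CPM in the Merkel libraries and 82.3 and 86.4 CPM in the IFE libraries (log2 fold change -4.03, SE 0.59, edgeR adjusted p = 0.00103). Wnt7b, a ligand, measured 2.66 and 6.45 CPM in the Merkel libraries and 81.4 and 82.9 CPM in the IFE libraries, and Sfrp1, a secreted antagonist, 14.3 and 4.69 CPM against 68 and 127 CPM. These fell in both Merkel libraries, and Wnt3, Wnt4, Wnt6, Wnt10a and Wnt10b were called lower too with all libraries. Some lower calls of this list needed IFE library 2, and whether those of the 5 ligands did is not given here. The planar polarity cadherins exchanged places: Celsr1 measured 62 and 94.2 CPM in the Merkel libraries and 325 and 281 CPM in the IFE libraries (log2 fold change -1.96, SE 0.34, edgeR adjusted p = 0.00302) and Celsr3 185 and 322 CPM in the Merkel libraries and 0.163 and 0.114 CPM in the IFE libraries (log2 fold change 10.80, SE 1.36, edgeR adjusted p = 0.000394). Nkd1, an inhibitor induced by WNT, rose at 51.9 and 34.5 CPM against 2.33 and 0.649 CPM (log2 fold change 4.86, SE 0.87, edgeR adjusted p = 0.00344). Apc measured 646 and 756 CPM against 386 and 794 CPM and was not called.

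Of 34 Notch pathway genes 4 were higher and 4 lower (3 and 2 without IFE library 2, 2 and 1 without Merkel library 1, 2 and 2 without Merkel library 2, 1 and 2 without IFE library 1, 7 and 5 without paw Merkel library 2). Notch1, the receptor, measured 24.7 and 12.7 CPM in the Merkel libraries and 139.6 and 218 CPM in the IFE libraries (log2 fold change -3.25, SE 0.45, edgeR adjusted p = 0.000756). Mfng, a glycosyltransferase that tunes Notch to its ligands, measured 42.6 and 47.6 CPM in the Merkel libraries and 0 and 0.42 CPM in the IFE libraries (log2 fold change 7.61, SE 1.54, edgeR adjusted p = 0.00681), with a log2 fold change of 12.6 without IFE library 2. Dll4, a ligand, measured 6.24 and 9.87 CPM against 0 and 0 CPM. Dner, a neuronal ligand, measured 6.62 and 0.879 CPM against 0 and 0 CPM, and Dlk2, a noncanonical one, 0 and 0 CPM against 11.6 and 7.17 CPM. The calls of Dll4, Dner, Notch4 and Dlk2 were each lost without at least 3 of the 4 back libraries taken 1 at a time. For Dll4 and Dner these included IFE library 2, and for Dlk2 they did not. Mib1, the ligase that activates ligands, measured 253 and 266 CPM against 61.3 and 147 CPM and was not called with all libraries.

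Among 29 neurotrophic factors and receptors 3 were higher and 4 lower (4 and 4 without IFE library 2, 2 and 2 without Merkel library 2). Sorcs1, a sorting receptor, measured 266 and 222 CPM in the Merkel libraries and 0.977 and 5.38 CPM in the IFE libraries (log2 fold change 6.24, SE 0.84, edgeR adjusted p = 0.00061). Sort1, of the same family, measured 307 and 250.01 CPM against 22.1 and 82.2 CPM and rose by 2.42 on the log2 scale, or 3.65 without IFE library 2. IFE library 2 was the higher IFE library in both. Ptn, the growth factor pleiotrophin, fell at 2.81 and 10.8 CPM in the Merkel libraries and 286 and 537 CPM in the IFE libraries (log2 fold change -5.92, SE 0.67, edgeR adjusted p = 0.000205), and Lifr, the receptor for leukaemia inhibitory factor, at 26.9 and 73.6 CPM against 328 and 271 CPM. Ntrk2, the receptor for brain-derived neurotrophic factor, measured 2.13 and 0 CPM against 10.6 and 24.5 CPM and was not called. Like it, 15 of the 22 neurotrophic genes tested did not pass, where 15.4% of all genes tested were called. Axon guidance genes were near balance, with 8 of 72 higher and 9 lower (9 and 8 without IFE library 2, 5 and 5 without Merkel library 2, 5 and 6 without IFE library 1). Sema3e, a secreted semaphorin, measured 468 and 559 CPM in the Merkel libraries and 1.57 and 2.94 CPM in the IFE libraries (log2 fold change 7.81, SE 0.93, edgeR adjusted p = 0.000269), and Epha5, an ephrin receptor of neurons, 109 and 107 CPM in the Merkel libraries and 0.0543 and 0 CPM in the IFE libraries (log2 fold change 11.81, SE 1.21, edgeR adjusted p = 9.90e-05). Plxna1, Plxnb2 and Neo1, receptors, fell by 2.22, 2.15 and 2.32 on the log2 scale, and Efna1, an ephrin, was at least 125-fold lower (15.9 and 16.1 CPM in IFE cells and 0 counts in Merkel cells). Plxnb1 measured 453 and 362 CPM against 388 and 391 CPM and was not called. The same held for 48 of the 65 axon guidance genes tested, beside 15.4% called of all genes tested.

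The calls among Hox genes were few and depended on single libraries. Only 28 Hox genes were tested and 25 did not pass, where 15.4% of all genes tested were called. Of 39 members none was higher and 3 (Hoxc8, Hoxc9 and Hoxc10) were lower, against 0 without IFE library 2, 0 without either Merkel library, and 1 higher and 4 lower without IFE library 1 or any 1 of the paw libraries. Hoxc10 measured 0.0761 and 0.0977 CPM in Merkel libraries 1 and 2, and 0 and 83.9 CPM in IFE libraries 1 and 2: its log2 fold change of -8.82 turned to 3.65 without IFE library 2. Hoxc9 measured 0.0761 and 0 CPM against 0.488 and 14.8 CPM, with -7.30 becoming -3.34. Both rested on IFE library 2. Hoxb3, of which 52.9% of exonic bases are shared with Hoxb3os, measured 179 and 226 CPM against 48.6 and 3.21 CPM and was not called.

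The 12 largest falls were genes that had at most a single count in a Merkel library. Ripply3, a corepressor of T-box factors, measured 0 and 0 CPM against 31.1 and 21.8 CPM, at least 206-fold lower (log2 fold change -11.90, SE 1.46, edgeR adjusted p = 0.000511). Cbr2, a carbonyl reductase, measured 34.5 and 22.7 CPM in the IFE libraries and was at least 223-fold lower. Fgf13, Rhbdl2 (an intramembrane protease), Sapcd2 and Mns1 (with 53% of its exonic bases shared with Tex9) were at least 226-fold, 172-fold, 166-fold and 206-fold lower. Cd74, the invariant chain of MHC class II, measured 0.0761 and 0.0977 CPM in the Merkel libraries and 483 and 59.6 CPM in the IFE libraries. H2-Ab1, a class II chain, measured 0.0761 and 0 CPM against 304 and 42.4 CPM. IFE library 1 was several-fold above IFE library 2 in both. Slc4a11 measured 46.2 and 1.98 CPM in IFE cells, and its call, like that of Cybb, was lost without either Merkel library or IFE library 1. The calls of Esr1 and Ifit1 were lost without either Merkel library.

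Markers of other cells were unequal between the groups. The 19 immune and Langerhans cell markers summed to 287 and 195 CPM in the Merkel libraries and 2553 and 1106 CPM in the IFE libraries, with 7 lower and 0 higher in Merkel cells (9 lower without IFE library 2, 11 without paw Merkel library 2). Cd24a, which keratinocytes express too, made up 1196 and 876 CPM of the IFE sums, and Ptprc, the pan-leukocyte marker, measured 0 and 0.195 CPM against 53.6 and 21.9 CPM. The 16 fibroblast markers summed to 219 and 177 CPM in the Merkel libraries and 1955 and 1003 CPM in the IFE libraries, with 8 lower and 1 higher, as also without IFE library 2. Col1a2 was the higher one at 165 and 74 CPM against 21.7 and 28.9 CPM, a call lost without Merkel library 1 or IFE library 1. Postn made up 1492 and 249 CPM of the IFE sums, Col1a1 measured 0 and 0.0977 CPM against 2.28 and 3.47 CPM, and Twist2 was at 0 in all 4 libraries. The immune and fibroblast sums thus moved with the genes lower in Merkel cells, and their part in those results was not tested. Melanocyte markers summed to 129 and 185 CPM in the Merkel libraries and 25.6 and 14.2 CPM in the IFE libraries, of which Kit, a receptor also found outside melanocytes, was 103 and 134 CPM in the Merkel libraries, while Tyrp1 was at 0 in all 4. Endothelial markers summed to at most 12.2 CPM in any library, with Cldn5, Esam and Tie1 at 0, and skeletal muscle markers to at most 26.9 CPM, with Actc1, Myog and Des at 0. Schwann cell and glial markers summed to 41.5 and 42.3 CPM in the Merkel libraries and 36.3 and 60.9 CPM in the IFE libraries, with Mbp at 37.7 and 27.4 CPM against 24.7 and 26.3 CPM, Pmp22 at 0 and 0.782 CPM against 10.2 and 31 CPM, and Cdh19 and Gfap at 0. No marker of these glial or muscle lists was called, and 1 of each list was lower without either paw Merkel library. Among 9 erythroid markers Alas2 measured 7.68 and 8.21 CPM against 15.8 and 19.3 CPM, and the 6 haemoglobin genes were listed at 0.

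**Figure D5:**
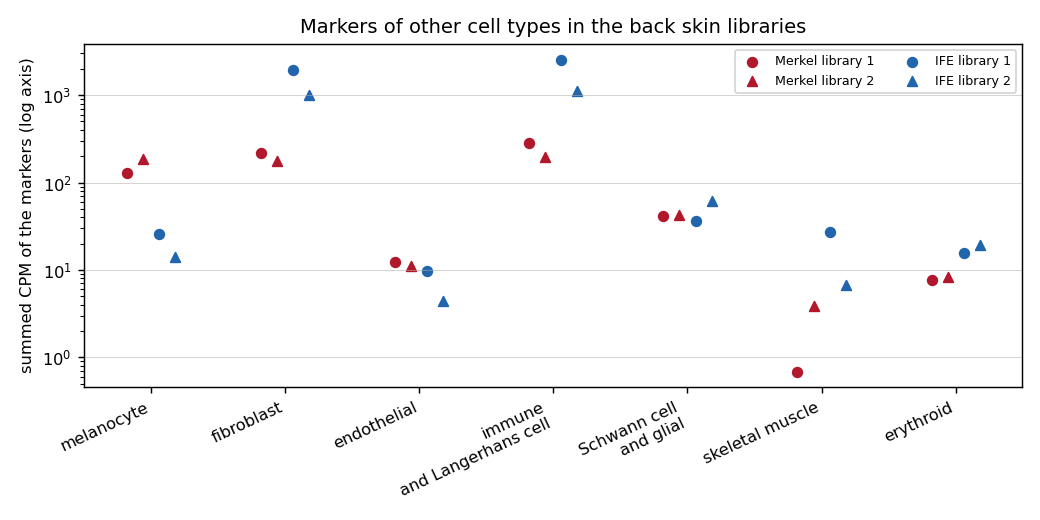
Summed CPM (log axis) of the markers of 7 other cell types in each back library, with Merkel libraries in red and IFE libraries in blue. The fibroblast and immune sums are higher in both IFE libraries than in both Merkel libraries, and the melanocyte sum is higher in the Merkel libraries, where Kit makes up most of it.

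Whether the Merkel against IFE difference of back skin departs from that of paw was tested as an interaction over the 8 libraries. No gene passed with edgeR (0%), with 1365 genes at an unadjusted p under 0.05, and limma-trend called 0. DESeq2 called 298 and the fit without a filter on low counts 305. With IFE library 2 left out edgeR called 41, with IFE library 1 left out 25, and with paw Merkel library 2 left out 27. Without paw IFE library 1 it called 9 and without paw Merkel library 1 it called 3. The genes described here are therefore those of back skin and were not shown to be particular to it. The site pattern of IFE library 2 enters this test as well.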

How the data were processed

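RNA of sorted cells was amplified from 10 ng with the Ovation RNA-seq System V2 and sequenced as paired reads of 150 bases, per the labels' protocols. Amplified reads without molecular identifiers are not independent molecules, so floors cover counting error only. The authors deposited gene counts over 24538 rows and FPKM values, fragments scaled by the authors to transcript length and library depth. The submitters' processing notes name mm10, TopHat2 2.0.13, Cufflinks 2.2.1, featureCounts, Subread 1.4.6 and DESeq2 1.6.3, without roles. The annotation and strand setting are not given in the sources used here, so overlapping and antisense genes cannot be told apart. Gene positions are from GENCODE vM21 (GRCm38) and promoters from RefSeq (GRCm38.p6).

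Genes were filtered with filterByExpr by group, which left 15151, and scaled by TMM. The edgeR 4.0.16 quasi-likelihood F test was fitted in R 4.3.3 to all 8 libraries with 1 mean per group and 4 residual degrees of freedom, and Benjamini-Hochberg adjustment ran over all genes tested with a threshold of 0.05. The edgeR test and limma-trend were also run on simulated counts with known changes, with the outcome not given here. The other settings were not simulated. SE is the log2 fold change divided by the root of F. A fold against a group with 0 counts is a lower bound at a floor of 3 counts over the group, 0.0672 CPM in IFE and 0.128 CPM in Merkel cells. The members and the 38 gene lists were chosen with earlier results of these data known. Named genes are the markers and sort genes, the 12 largest changes in each direction with no overlap between libraries and a mean of 10 CPM or more in the higher group, the 10 called genes of highest FPKM in each cell type, and from each list up to 4 called members of the commoner direction, up to 2 of the other and the most abundant member not past the threshold; predicted genes were left out of the rankings. All 233 named genes were found in GENCODE, and 9 shared over 20% of their exonic bases with another gene. Other called members are named without values, some members are counted but not reported by name here, and the genes whose promoters are printed were chosen after their values were seen.

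Alternatives were other scalings and filters, DESeq2 1.42.0, limma-trend (limma 3.58.1), the back libraries alone, a replicate block, each library left out in turn, and log2 of FPKM plus a pseudocount of 1 or 0.1.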

Additional observations from a re-analysis of the deposited data

Results flagged for a closer look

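Of the genes named here, 7 had Merkel libraries wholly on opposite sides of the IFE libraries in back skin and in paw. The edgeR interaction test of that difference passed the threshold for none of them, with adjusted p-values given for each. Separation alone was common in back skin, upward in 29.1% and downward in 32.8% of all genes tested. The share of all genes tested that lay on opposite sides in back skin and paw is not given here, so the 7 genes cannot be set against it. Ripply3 had a log2 fold change of -11.90 in back skin and measured 24 and 19.1 CPM against 12.4 and 10 CPM in paw Merkel and paw IFE cells (interaction adjusted p = 0.0789). Id2 had -10.66 in back skin and measured 31.7 and 16.9 CPM against 3.83 and 12.7 CPM in paw (interaction adjusted p = 0.165). Id3 had -3.11 in back skin and measured 101 and 85.2 CPM against 40.5 and 50.2 CPM in paw (interaction adjusted p = 0.242). Hdac2, a class I histone deacetylase, had -0.86 in back skin, where it was not called, and measured 319 and 374 CPM against 247 and 265 CPM in paw (interaction adjusted p = 0.485). Epcam, a sort gene, had -0.38 in back skin, not called, and measured 317 and 325 CPM against 182 and 209.6 CPM in paw (interaction adjusted p = 0.488). Pecam1, an endothelial marker, had 2.85 in back skin, not called, and measured 0 and 0 CPM against 1.67 and 1.18 CPM in paw (interaction adjusted p = 0.348). Mbp, a myelin gene, had 0.35 in back skin, not called, and measured 42.7 and 17.4 CPM against 51.7 and 50.3 CPM in paw (interaction adjusted p = 0.741).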

How the results depend on the processing

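The 2338 genes called in back skin became 4215 with DESeq2, of which 2336 were shared in direction, and from 1307 (without back Merkel library 2) to 3376 (without paw Merkel library 2) when 1 library was left out. The other settings gave 2326 to 3320, a range within 1.5 times the count, with 3195 by limma-trend and 2468 on the back libraries alone. Of 194 named genes called, 155 stayed past the threshold without any 1 library and 149 in every setting that gave a value. Leaving out a library ended the call for 32 (back Merkel library 2), 26 (back Merkel library 1), 20 (back IFE library 1) and 15 (back IFE library 2) of them. Among the 194 named genes called 1 turned in direction: the Hoxc10 log2 fold change ran from -9.83 without back IFE library 1 to 3.65 without back IFE library 2. Turns in direction were not counted for named genes that were not called. The interaction, 0 genes, gave 1 with DESeq2 size factors, 305 without a filter on low counts, 298 with DESeq2, 1 with FPKM and a pseudocount of 1, and 0 to 41 with 1 library left out; it has no value on the back libraries alone. The causes of these shifts were not tested.

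Whether samples with the same replicate number share more than that number, such as a mouse or a litter, is not in the labels. The correlation of their deviations from the group means was -0.0106 in back skin and 0.00272 in paw. It runs across genes and not over independent replicates, so it cannot decide this. With a replicate block within each site, 2670 genes were called in back skin and 60 for the interaction.

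With 2 libraries a group the precision is low for genes of few counts, and 73 genes called lower had 0 counts in both Merkel libraries, whose totals were the smallest of the 4.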

Other observations

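Among the genes called in back skin, 65 of those higher in Merkel cells and 18 of those lower were predicted genes or clones without a gene symbol of their own. Of the higher genes 109 had 0 counts in both IFE libraries, and of the lower genes 73 had 0 counts in both Merkel libraries.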
